A study of Homo sapiens with 24 samples.

Results

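Respiratory complex I (NADH:ubiquinone oxidoreductase) is built from subunits encoded in the nucleus and in mitochondrial DNA. The genes described here are its nuclear-encoded subunits in ARPE-19 cells, an established human line of retinal pigment epithelium. They are all gene symbols of the form NDUFA, NDUFAB, NDUFB, NDUFC, NDUFS or NDUFV followed by a number, without NDUFA4 and NDUFA4L2 and without the NDUFAF assembly factors. This rule uses names only, and it found 37 genes among the 24053 Ensembl identifiers of the expression table, and all 37 averaged 1 TPM or more (TPM is the share of a sample's transcripts, corrected for gene length and scaled to a fixed total). By role they comprise 7 core catalytic subunits, 9 accessory subunits of the matrix arm, the acyl carrier protein NDUFAB1, 9 accessory subunits of the proximal membrane arm and 11 of the distal membrane arm. The 7 mitochondrially encoded subunits were not found in the expression table and are not analysed here.

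Complex I takes electrons from NADH at the tip of its matrix arm, passes them along iron-sulfur clusters to ubiquinone, and pumps protons through its membrane arm. The core subunits carry the cofactors, while the accessory subunits surround the core and are needed for assembly and stability. The retinal pigment epithelium is rich in mitochondria. PINK1 is a kinase that accumulates on damaged mitochondria and marks them for removal, and NRF2 (gene NFE2L2) is a transcription factor of the antioxidant response.

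The study gave ARPE-19 cells 1 of 4 siRNA treatments: Nrf2-Pink1 siRNA (the double siRNA), Pink1 siRNA, Nrf2 siRNA or scramble siRNA. Each group has 3 biological replicates with 2 technical replicates each, whose TPM was averaged, so n = 3 per group throughout. The labels call the groups knockouts or knockdowns, whereas the series design names siRNA. A scratch-wound assay appears among the protocols; whether wounded cells were used for RNA is not stated. All samples come from this single line, and the labels do not say whether the biological replicates were separate cultures, so that p-values measure the spread between these samples. With 3 samples against 3, an exact permutation test of a single gene could not give a p below 0.1.

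Relative to scramble, PINK1 was at 34.4% with the double siRNA (adjusted p = 0.00301) and at 27.2% with Pink1 siRNA (adjusted p = 0.00056, limma). NFE2L2 was at 36.1% with the double siRNA (adjusted p = 0.0212) and at 24.4% with Nrf2 siRNA (adjusted p = 0.00523). Of 12 markers of the retinal pigment epithelium, 10 averaged at least 1 TPM, but the visual cycle enzyme RPE65 averaged 0.107 TPM and DCT was not found in the table. Their summed level was 1719 to 2018 TPM with the double siRNA, 1555 to 2199 with Pink1 siRNA and 1351 to 1647 with Nrf2 siRNA, against 1733 to 1971 with scramble. It was thus wholly below scramble with Nrf2 siRNA, and the leukocyte sum given next was wholly above it. The part of either sum in the subunit differences was not tested. The keratins KRT8 and KRT18, which averaged 883.2 and 711 TPM, carried most of the retinal pigment epithelium sum. Of the 4 leukocyte markers, PTPRC averaged 0.064 TPM and CD14 and CD3E were not found; CD68, which macrophages and some other cells express, carried nearly all of the summed level, which was 34.1 to 52.5 TPM with the double siRNA, 25.3 to 31.0 with Pink1 siRNA, 42.3 to 104.8 with Nrf2 siRNA and 19.2 to 37.9 with scramble. ENSG00000226958, an identifier with no symbol here, made up 41.4% of the total in replicate 1 of the double siRNA and 15.5% in its replicate 3, with the other 10 samples between 24.9% and 38.6%. TPM are shares of a fixed total, so this identifier moves the level of every other gene, and results are also given after its removal and rescaling. In bulk RNA, fewer cells of a type and less RNA per cell cannot be told apart.

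No subunit passed the test in any comparison. With limma's moderated test and Benjamini-Hochberg adjustment over the 13810 genes tested, 0 of 37 subunits were called (adjusted p under 0.05) with the double siRNA against scramble, where 0.753% of all genes were. The count was 0 of 37 with Pink1 siRNA (0.471% of all genes) and 0 of 37 with Nrf2 siRNA (0.333%). At an unadjusted p under 0.05 the counts were 7 of 37 with the double siRNA (14.2% of all genes), 5 of 37 with Pink1 siRNA (12.2%) and 0 of 37 with Nrf2 siRNA (12.2%). All 12 of these differences were below 0. The subunit with the smallest p was NDUFC1 with the double siRNA, at 51.4% of scramble (log2 difference -0.96, SE 0.227, 95% interval -1.45 to -0.47, adjusted p = 0.0774).

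Small differences below 0 were common among the subunits. With the double siRNA 26 of 37 fitted log2 differences were below 0, against 48.5% of all genes. The numbers were 31 of 37 with Pink1 siRNA (46.7% of all genes) and 30 of 37 with Nrf2 siRNA (47.5%). The median difference over the subunits was -0.16 with the double siRNA, -0.16 with Pink1 siRNA and -0.18 with Nrf2 siRNA, while the medians over all genes were 0.01, 0.02 and 0.02. These are descriptions without a test, the subunits are not independent of each other, and the 3 comparisons share the same scramble samples.

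**Figure D1:**
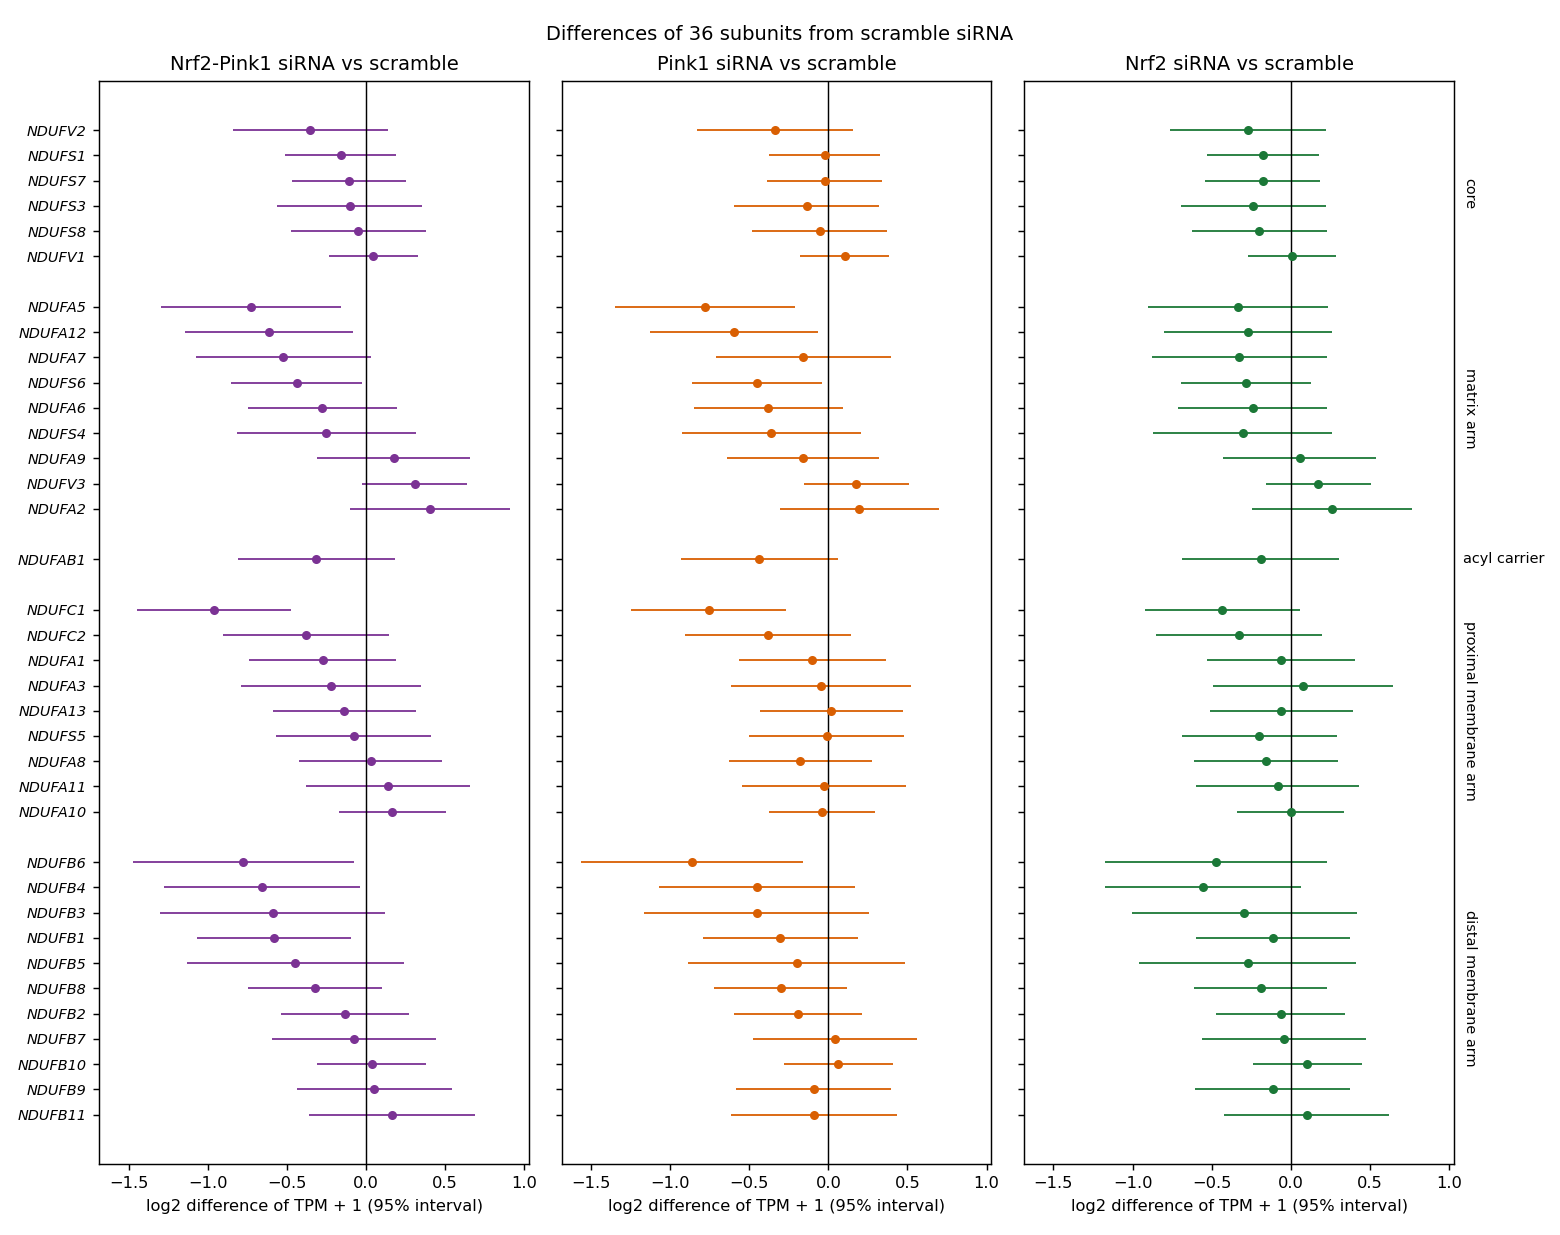
Fitted log2 difference of TPM + 1 from scramble for each of 36 subunits (points) with its 95% interval (bars), for Nrf2-Pink1 siRNA, Pink1 siRNA and Nrf2 siRNA from left to right, grouped by position in the complex. Most points lie left of 0, NDUFC1 with the double siRNA lies farthest left at -0.96, and most intervals include 0.

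How far single samples lay below scramble differed within the siRNA groups. The summed level of the 37 subunits was 2028, 2543 and 3478 TPM with the double siRNA, against 2801, 2949 and 3290 TPM with scramble. It was 2457, 2628 and 2837 TPM with Pink1 siRNA and 3080, 2297 and 2690 TPM with Nrf2 siRNA. All 3 siRNA groups therefore overlapped scramble, and the double siRNA held both the lowest and the highest of the 12 samples. Its lowest sample was the one with the largest share of ENSG00000226958 and its highest the one with the smallest.

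With that identifier removed, the sums were 3458, 3600 and 4118 TPM with the double siRNA, 3808, 3885 and 3777 TPM with Pink1 siRNA, 4393, 3741 and 3970 TPM with Nrf2 siRNA, and 4282, 4634 and 4868 TPM with scramble. The group means were 3725 ± 347 TPM with the double siRNA, 3823 ± 55.6 with Pink1 siRNA, 4035 ± 331 with Nrf2 siRNA and 4595 ± 295 with scramble (SD, n = 3 each). On this scale every double-siRNA and every Pink1-siRNA sample lay below every scramble sample, and Nrf2-siRNA replicate 1 lay among the scramble samples. In double-siRNA replicate 3, however, the median log2 difference from scramble was then -0.13 for the subunits and -0.16 for all genes. Under median-of-ratios scaling the subunit median of that replicate was 0.05, against -0.09, -0.03 and 0.16 in the scramble samples. No p is given for a sum over chosen genes.

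**Figure D2:**
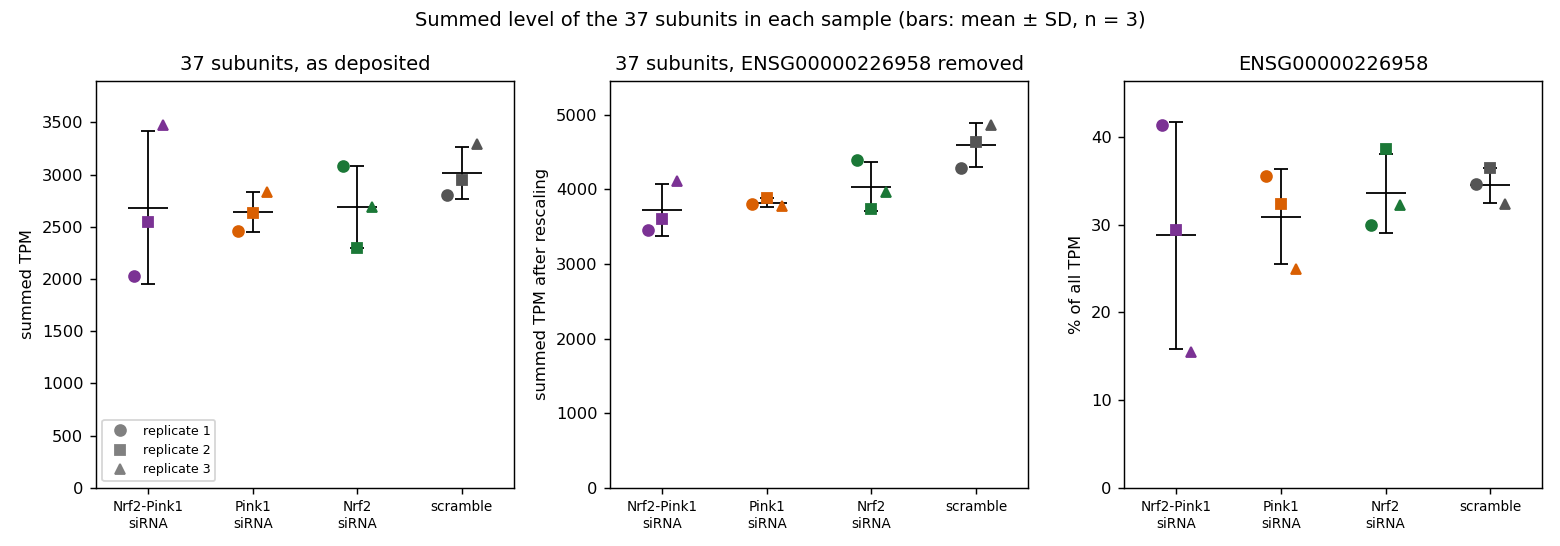
Left, summed TPM of the 37 subunits in each biological sample as deposited; middle, the same after removing ENSG00000226958 and rescaling to the same total; right, the share of all TPM that this identifier took. Points are samples with the marker giving the replicate number, and bars are mean ± SD (n = 3); in the left panel double-siRNA replicates 1 and 3 are the lowest (2028) and highest (3478) of the 12, and in the right panel they are the highest (41.4%) and lowest (15.5%).

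Removing the identifier narrowed the spread of the subunits: their median SD between biological samples of a group was 0.204 on the log2 scale, against 0.308 as deposited. As deposited, technical replicates of the subunits had a median SD of 0.151, and biological samples had 0.265 over all genes. With it removed, 1 subunit passed the test with the double siRNA (NDUFC1, where 2.06% of 14735 genes passed), 0 with Pink1 siRNA (1.17%) and 0 with Nrf2 siRNA (0.889%). At an unadjusted p under 0.05 the subunits then numbered 16 with the double siRNA (17.7% of all genes), 13 with Pink1 siRNA (14.7%) and 1 with Nrf2 siRNA (14.4%). The median differences were then -0.27, -0.23 and -0.20 for the 3 comparisons in that order, while the medians of all genes were -0.08, -0.04 and 0.00.

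No core catalytic subunit was called. The 7 had a median log2 difference of -0.10 with the double siRNA (range -0.35 to 0.05), -0.03 with Pink1 siRNA (-0.34 to 0.10) and -0.18 with Nrf2 siRNA (-0.27 to 0.01), and 0 of 7 had an unadjusted p under 0.05 in any of these comparisons. With Nrf2 siRNA this median equalled that of all 37. With ENSG00000226958 removed, the core medians were -0.21, -0.10 and -0.20 for the double, Pink1 and Nrf2 siRNAs, and an unadjusted p under 0.05 was found for NDUFS1 and NDUFV2 with the double siRNA (adjusted p = 0.227 and 0.15) and for NDUFV2 with Pink1 siRNA (adjusted p = 0.244). NDUFV1, which binds NADH and the flavin that first accepts its electrons, had 97.0, 87.0 and 95.6 TPM with the double siRNA, 94.0, 95.1 and 101.7 TPM with Pink1 siRNA, 93.2, 93.8 and 85.2 TPM with Nrf2 siRNA, and 82.2, 86.4 and 103.2 TPM with scramble. Each siRNA group overlapped scramble, and its interval for the double siRNA, -0.24 to 0.33, was the narrowest of the 37.

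NDUFV2, which pairs with NDUFV1 and holds an iron-sulfur cluster, had the lowest fitted difference of the core subunits with both the double siRNA and Pink1 siRNA. It had 56.8, 82.0 and 115.5 TPM with the double siRNA, 80.3, 90.8 and 75.7 TPM with Pink1 siRNA, 99.9, 66.3 and 96.4 TPM with Nrf2 siRNA, and 97.5, 107.7 and 107.3 TPM with scramble. The Pink1-siRNA samples lay below all scramble samples (log2 difference -0.34, SE 0.228, adjusted p = 0.581), while those of the double siRNA spread on both sides.

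NDUFS1, the largest subunit, with several iron-sulfur clusters, averaged 65.1 ± 13.5 TPM with the double siRNA, 70.8 ± 5.57 with Pink1 siRNA, 63.7 ± 6.64 with Nrf2 siRNA and 72.1 ± 6.49 with scramble. NDUFS3, a scaffold of the matrix arm, averaged 84.6 ± 24.1, 81.6 ± 16.8 and 75.9 ± 14.2 TPM with the double, Pink1 and Nrf2 siRNAs, and 88.8 ± 7.45 TPM with scramble. Samples of each siRNA group overlapped scramble for both subunits.

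NDUFS7 holds the last iron-sulfur cluster before ubiquinone. It averaged 32.7 ± 4.64 TPM with the double siRNA, 34.8 ± 5.77 with Pink1 siRNA, 31.0 ± 1.85 with Nrf2 siRNA and 35.4 ± 5.85 with scramble. NDUFS8, a ferredoxin-like subunit, averaged 122.9 ± 33.7, 120.8 ± 21.2 and 108.6 ± 12.02 TPM with the double, Pink1 and Nrf2 siRNAs, and 125 ± 17.0 TPM with scramble. Both overlapped in every comparison with scramble.

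The accessory subunits of the matrix arm had lower medians than the core: -0.28 with the double siRNA, -0.36 with Pink1 siRNA and -0.27 with Nrf2 siRNA (9 genes), a difference between groups of genes that was not tested. Unadjusted p was under 0.05 for 3 of 9 with the double siRNA (14.2% of all genes), namely NDUFA5, NDUFA12 and NDUFS6. The same 3 had it with Pink1 siRNA (12.2% of all genes). The fitted differences of the 9 ran from -0.73 to 0.40 with the double siRNA.

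NDUFA5, an accessory subunit of the matrix arm, had 10.3, 26.5 and 18.5 TPM with the double siRNA, 17.4, 19.6 and 13.4 TPM with Pink1 siRNA, 25.9, 18.6 and 25.3 TPM with Nrf2 siRNA, and 28.9, 29.1 and 29.6 TPM with scramble. All 9 siRNA samples lay below all 3 scramble samples, whose SD was 0.313 TPM. How many of all genes had this pattern, also seen for NDUFB6 and NDUFB4 below, was not counted. The comparisons share these scramble samples. The log2 difference was -0.73 with the double siRNA (SE 0.263, adjusted p = 0.237), -0.78 with Pink1 siRNA (adjusted p = 0.241) and -0.33 with Nrf2 siRNA (adjusted p = 0.672).

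NDUFS6, which binds zinc and is added late in assembly of the matrix arm, had 22.2, 24.1 and 24.0 TPM with the double siRNA, 25.04, 19.1 and 26.2 TPM with Pink1 siRNA, 33.1, 21.1 and 25.9 TPM with Nrf2 siRNA, and 27.4, 30.4 and 39.7 TPM with scramble. The double-siRNA and Pink1-siRNA samples lay below all scramble samples, and those of Nrf2 siRNA overlapped them. The log2 difference was -0.44 with the double siRNA (adjusted p = 0.319) and -0.45 with Pink1 siRNA (adjusted p = 0.358). NDUFA12, an accessory subunit named outside the rule for its unadjusted p, had 39.7, 67.4 and 84.5 TPM with the double siRNA, 54.3, 64.3 and 67.2 TPM with Pink1 siRNA, 91.4, 62.2 and 81.8 TPM with Nrf2 siRNA, and 79.1, 111.2 and 93.6 TPM with scramble. Of these only the Pink1-siRNA samples lay wholly below scramble. It stood at 65.4% of scramble with the double siRNA and 66.2% with Pink1 siRNA (adjusted p = 0.277 and 0.347).

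NDUFV3, the subunit with the lowest level of all 37 (14.2 TPM over the 12 samples), lay above scramble with each siRNA in the fit, as did NDUFA2, NDUFB10 and NDUFV1. It had 13.03, 17.8 and 16.6 TPM with the double siRNA, 14.4, 14.4 and 14.0 TPM with Pink1 siRNA, 15.6, 11.73 and 15.6 TPM with Nrf2 siRNA, and 12.5, 12.7 and 12.3 TPM with scramble. The samples of the double siRNA and of Pink1 siRNA all lay above scramble, by 0.31 (SE 0.154, adjusted p = 0.393) and 0.18 (adjusted p = 0.681) on the log2 scale, and those of Nrf2 siRNA overlapped it. With technical replicate 2 alone the Pink1-siRNA difference was -0.03. NDUFA2, which has a thioredoxin fold, had the highest fitted difference with each siRNA, 0.40 with the double siRNA, 0.20 with Pink1 siRNA and 0.26 with Nrf2 siRNA, and each siRNA group overlapped scramble.

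NDUFAB1, the mitochondrial acyl carrier protein, which serves fatty acid synthesis as well as complex I, had 40.8, 63.2 and 90.0 TPM with the double siRNA, 56.9, 65.5 and 48.0 TPM with Pink1 siRNA, 72.4, 60.0 and 69.6 TPM with Nrf2 siRNA, and 71.7, 77.0 and 81.7 TPM with scramble. Only the Pink1-siRNA samples were all below scramble (log2 difference -0.44, SE 0.229, adjusted p = 0.478), and the double-siRNA samples spanned the scramble range.

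The proximal membrane arm held the subunit that departed most from scramble with the double siRNA, and several that departed little. The median over its 9 accessory subunits was -0.14 with the double siRNA, -0.05 with Pink1 siRNA and -0.08 with Nrf2 siRNA. NDUFC1, a small membrane-spanning subunit, had 51.4, 82.6 and 65.2 TPM with the double siRNA, 88.0, 76.9 and 62.9 TPM with Pink1 siRNA, 120.1, 66.4 and 105.3 TPM with Nrf2 siRNA, and 119.1, 126.3 and 138.8 TPM with scramble. Every double-siRNA and Pink1-siRNA sample lay below every scramble sample, whereas Nrf2-siRNA replicate 1 was within the scramble range. The difference with Pink1 siRNA was -0.76 (adjusted p = 0.195) and with Nrf2 siRNA -0.43 (adjusted p = 0.487).

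For NDUFC1 the technical replicates of a sample lay at 49.9 and 53.0, 90.7 and 74.4, and 65.7 and 64.7 TPM with the double siRNA, against 110.7 and 127.6, 106.1 and 146.4, and 130.4 and 147.2 TPM with scramble. No single technical replicate of the double siRNA reached the lowest one of scramble. Its difference with the double siRNA was called under 5 of 19 alternative settings, with adjusted p from 0.0191 to 0.243 and log2 differences from -1.13 to -0.71 over the 19, and in 0 of the 6 among them that left out a sample. With ENSG00000226958 removed it was -1.07 (adjusted p = 0.0254), and with trends over transcript GC content and length removed -0.99 (adjusted p = 0.0191).

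NDUFS5 and NDUFC2 had the highest levels of the 37, at 255.5 and 162.9 TPM over the 12 samples. NDUFS5, which faces the intermembrane space, had 193.5, 252.5 and 321.1 TPM with the double siRNA, 226.0, 259.8 and 307.4 TPM with Pink1 siRNA, 304.7, 169.3 and 236.6 TPM with Nrf2 siRNA, and 253.1, 247.3 and 295.0 TPM with scramble, with each siRNA group overlapping scramble. NDUFC2, the neighbour of NDUFC1 in the complex, had 95.3, 151.8 and 223.5 TPM with the double siRNA, 151.7, 157.5 and 133.7 TPM with Pink1 siRNA, 174.1, 127.8 and 161.6 TPM with Nrf2 siRNA, and 179.3, 197.6 and 200.9 TPM with scramble. The samples of Pink1 siRNA and of Nrf2 siRNA lay below all scramble samples (log2 differences -0.38 and -0.33, adjusted p = 0.551 and 0.646).

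NDUFA10 is described for a known link, outside the rule for named genes: in mouse, its phosphorylation was found to depend on PINK1. Its transcript had 84.7, 107.5 and 118.4 TPM with the double siRNA, 80.1, 82.8 and 105.1 TPM with Pink1 siRNA, 94.0, 85.1 and 94.7 TPM with Nrf2 siRNA, and 89.2, 97.4 and 87.4 TPM with scramble. Each siRNA group overlapped scramble, and the log2 difference with Pink1 siRNA was -0.04 (95% interval -0.38 to 0.30, adjusted p = 0.950). Transcript levels say nothing of phosphorylation.

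The distal membrane arm had a median of -0.32 with the double siRNA, -0.20 with Pink1 siRNA and -0.11 with Nrf2 siRNA over its 11 accessory subunits. NDUFB6, NDUFB4 and NDUFB1 had an unadjusted p under 0.05 with the double siRNA (14.2% of all genes), and NDUFB6 alone with Pink1 siRNA (12.2%). NDUFB6 had 14.2, 41.4 and 42.0 TPM with the double siRNA, 31.5, 32.0 and 20.7 TPM with Pink1 siRNA, 39.6, 32.9 and 36.8 TPM with Nrf2 siRNA, and 45.2, 50.7 and 57.1 TPM with scramble. All 9 siRNA samples lay below all 3 scramble samples, by -0.77 (SE 0.324, adjusted p = 0.298), -0.86 (adjusted p = 0.297) and -0.47 (adjusted p = 0.613) on the log2 scale for the double, Pink1 and Nrf2 siRNAs.

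NDUFB4 showed the same separation. It had 36.6, 69.4 and 87.1 TPM with the double siRNA, 74.4, 85.9 and 53.6 TPM with Pink1 siRNA, 88.3, 53.6 and 57.8 TPM with Nrf2 siRNA, and 90.3, 101.1 and 96.8 TPM with scramble (log2 differences -0.66, -0.45 and -0.56, adjusted p = 0.322, 0.555 and 0.478). NDUFB1 had 30.9, 52.2 and 59.2 TPM with the double siRNA, 56.0, 60.2 and 51.1 TPM with Pink1 siRNA, 68.5, 51.4 and 73.1 TPM with Nrf2 siRNA, and 57.1, 72.6 and 78.8 TPM with scramble, so that each siRNA group overlapped scramble (double siRNA -0.58, adjusted p = 0.267). The remaining 8 distal subunits had fitted differences with the double siRNA between -0.59 (NDUFB3) and 0.16 (NDUFB11).

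**Figure D3:**
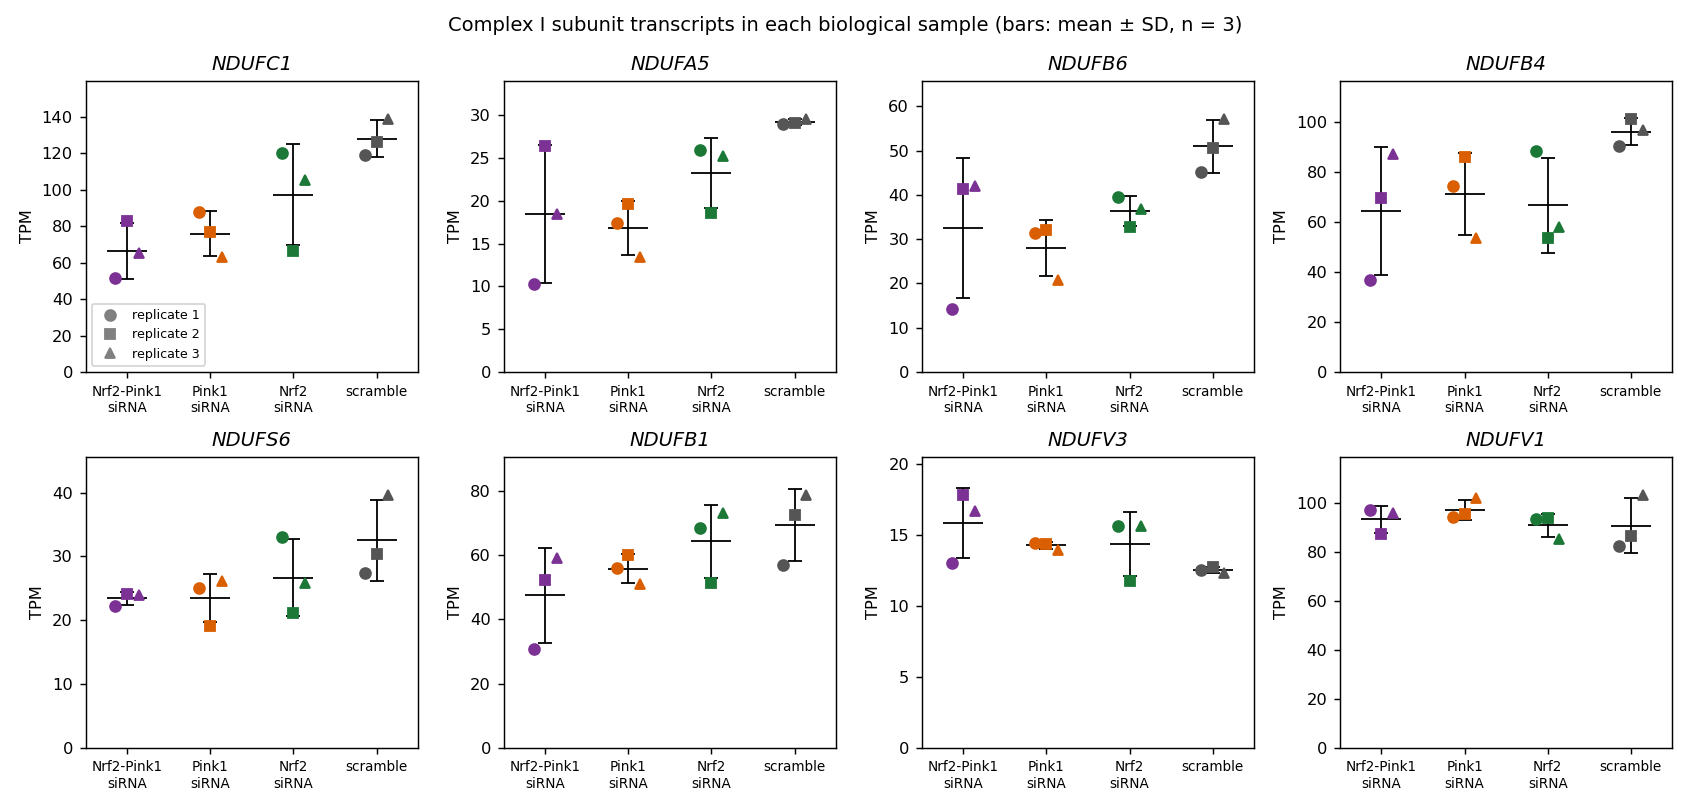
TPM of 8 subunits in each biological sample, with groups from left to right Nrf2-Pink1 siRNA, Pink1 siRNA, Nrf2 siRNA and scramble; the marker gives the replicate number, and bars are mean ± SD (n = 3). For NDUFA5, NDUFB6 and NDUFB4 every siRNA sample lies below every scramble sample, whereas for NDUFV1 each siRNA group overlaps scramble. The share of all genes with such a separation was not counted. Double-siRNA replicate 1 is the lowest sample for NDUFC1, NDUFA5, NDUFB6, NDUFB4 and NDUFB1.

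Counted over all 37, the samples of the double siRNA lay wholly below scramble for 5 subunits (7.82% of all genes) and wholly above for 1, NDUFV3 (10.2%). With Pink1 siRNA the counts were 13 below (11.2% of all genes) and 1 above (13.8%), and with Nrf2 siRNA 5 below (9.26%) and 0 above (13.6%). The 13 of Pink1 siRNA were NDUFV2, NDUFA5, NDUFA6, NDUFA12, NDUFS4, NDUFS6, NDUFAB1, NDUFC1, NDUFC2, NDUFB3, NDUFB4, NDUFB6 and NDUFB8. With ENSG00000226958 removed, the counts below were 17 with the double siRNA (14.2% of all genes), 15 with Pink1 siRNA (14.3%) and 10 with Nrf2 siRNA (10.7%).

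Single samples set the size of the medians. Leaving out double-siRNA replicate 3 gave a median difference of -0.40 for the double siRNA, and leaving out double-siRNA replicate 1 or 2 or scramble replicate 3 gave -0.02, -0.08 and -0.05. For Pink1 siRNA the median was -0.07 without scramble replicate 3 and -0.09 without Pink1-siRNA replicate 1, and -0.24 without Pink1-siRNA replicate 3. For Nrf2 siRNA it was -0.08 without Nrf2-siRNA replicate 2 and -0.12 without scramble replicate 3. The median was below 0 in each of the 18 fits that left out a sample.

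**Figure D4:**
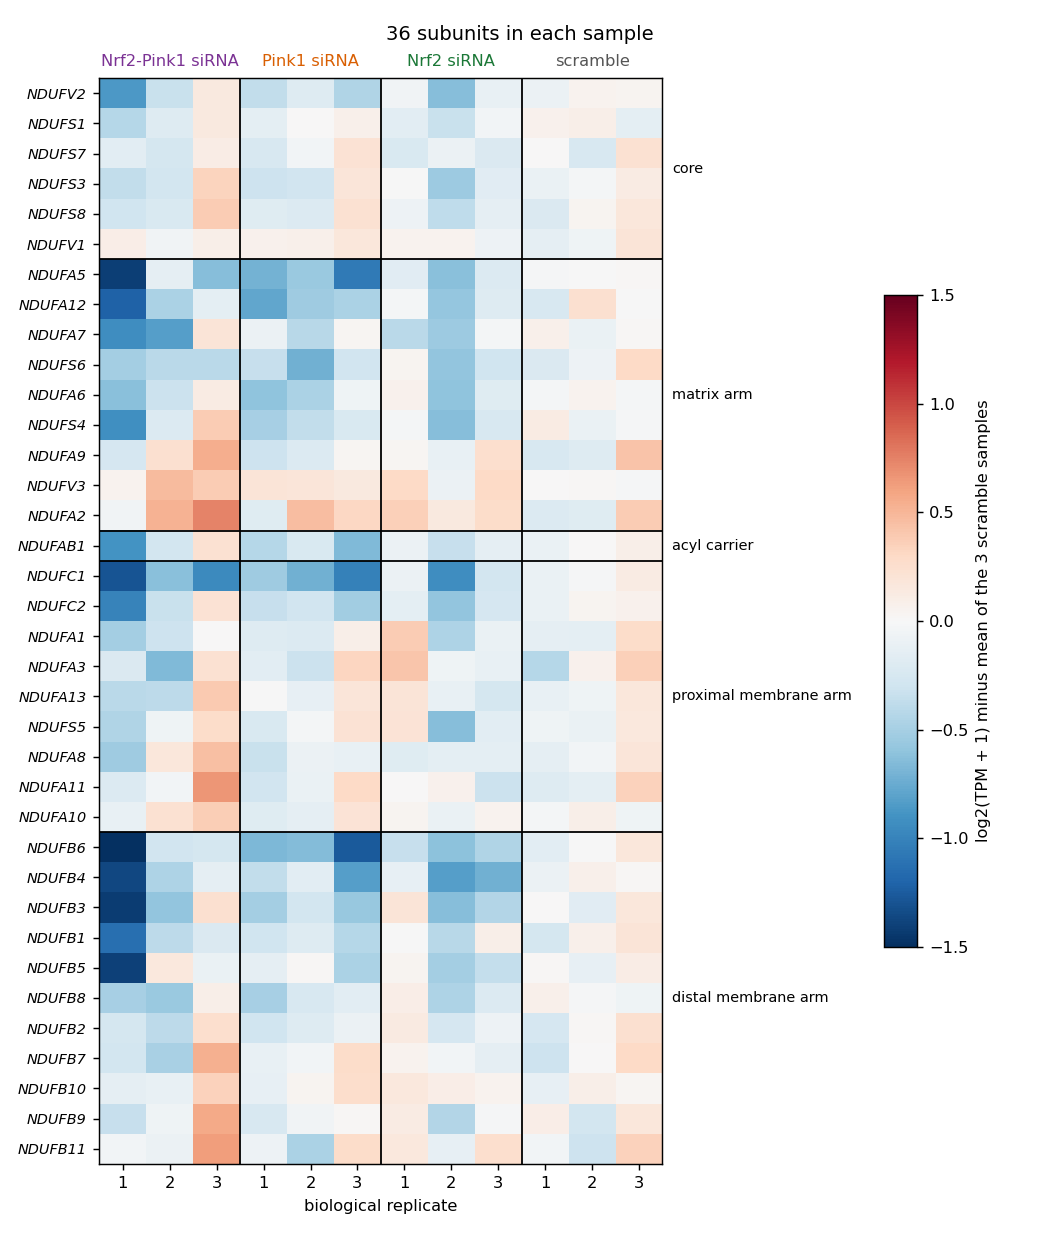
Each of 36 subunits (rows, grouped by position in the complex) in each of the 12 biological samples (columns; Nrf2-Pink1 siRNA, Pink1 siRNA, Nrf2 siRNA and scramble from left to right), coloured by log2(TPM + 1) minus the mean of the 3 scramble samples, blue below and red above. Blue is deepest in double-siRNA replicate 1, Nrf2-siRNA replicate 2 is blue in most rows, and double-siRNA replicate 3 is red in most rows, NDUFC1 and NDUFA5 being among its 8 blue ones.

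The comparisons among the siRNA groups gave 0 called subunits as well. Between the double siRNA and Pink1 siRNA 0 of 37 were called (0.0434% of all genes) and 0 had an unadjusted p under 0.05 (5.8%). Between the double siRNA and Nrf2 siRNA 0 were called (0.0145%) and 1 had an unadjusted p under 0.05 (6.95%), NDUFC1 at -0.53 (adjusted p = 0.68). Between Pink1 siRNA and Nrf2 siRNA 0 were called (0.992%) and 0 had an unadjusted p under 0.05 (11.2%). The median differences of the subunits in these comparisons were 0.01, -0.05 and -0.04.

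The interaction term sets the log2 difference of the double siRNA from scramble against the sum of the 2 single-siRNA differences. It was above 0 for 27 of 37 subunits (median 0.17, all genes -0.03) and below 0 for 10, where 54% of all genes were below 0. This is a description without a test. Leaving out single samples gave medians from -0.01, without double-siRNA replicate 3, to 0.33, without double-siRNA replicate 1; it was 0.06 without Nrf2-siRNA replicate 2. It was called for 0 of 37 (0% of all genes) and had an unadjusted p under 0.05 for 0 of 37 (5.45%). An F test over the 4 groups called 0 of 37 (1.13% of all genes) and had an unadjusted p under 0.05 for 2 of 37 (13.8%), NDUFC1 (adjusted p = 0.143) and NDUFA5 (adjusted p = 0.315).

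Transcript base composition moved with the differences. GC content, the median over the protein-coding GENCODE transcripts of each gene, ran from 34.4% for NDUFA5 to 66.8% for NDUFS7. The 18 subunits below the median GC of 50.8% had median differences of -0.36 with the double siRNA, -0.37 with Pink1 siRNA and -0.27 with Nrf2 siRNA. For the other 19, at or above it, these were -0.05, -0.05 and -0.08. All genes followed the same direction over a smaller range: medians were -0.07, -0.07 and -0.04 for the 7440 genes below that GC content and 0.11, 0.13 and 0.08 for the 5938 above it.

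Across the 37 subunits, Spearman's rho between GC content and the difference was 0.52 with the double siRNA, 0.65 with Pink1 siRNA and 0.52 with Nrf2 siRNA, and 0.34, 0.37 and 0.24 across the 13378 genes with a value. These are correlations across genes that share libraries and controls, given as descriptions. By sample, the median of the 18 low-GC subunits relative to scramble was -0.96, -0.31 and 0.15 with the double siRNA, -0.37, -0.21 and -0.46 with Pink1 siRNA and -0.03, -0.60 and -0.19 with Nrf2 siRNA. The scramble samples themselves stood at -0.09, 0.01 and 0.08. Double-siRNA replicate 1, Nrf2-siRNA replicate 2 and Pink1-siRNA replicate 3 thus held the lowest low-GC subunits of their groups.

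Removing each sample's trend over GC content and length left median differences of -0.25 with the double siRNA, -0.21 with Pink1 siRNA and -0.19 with Nrf2 siRNA, where all genes had 0.00, 0.00 and -0.02. The low-GC subunits then had medians of -0.30, -0.30 and -0.21, and the others -0.16, -0.16 and -0.16. Fitted differences below 0 numbered 31, 33 and 32 of 37, against 50.3%, 50% and 52.9% of all genes. At an unadjusted p under 0.05 the subunits numbered 12, 10 and 3, all below 0, against 18.6%, 15.5% and 17.3% of all genes. This alternative was chosen after seeing the data, and what sets the relation to GC content was not tested.

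**Figure D5:**
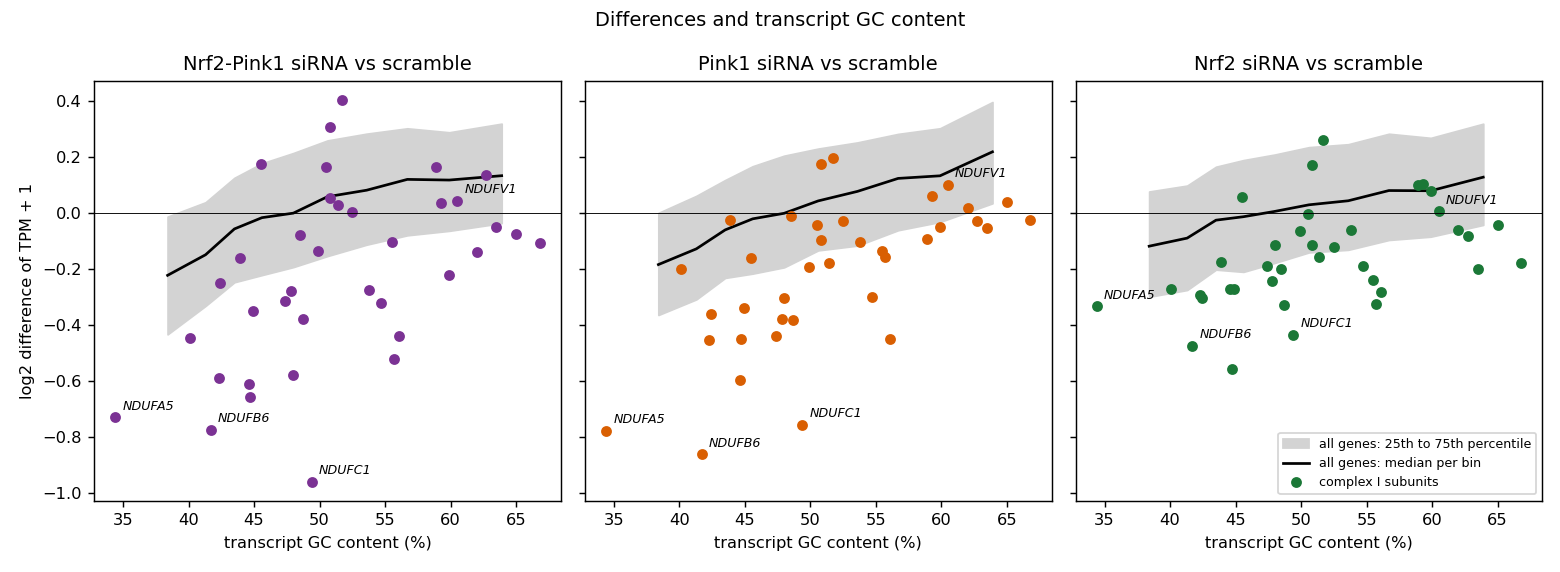
Fitted log2 difference from scramble (vertical axis) against transcript GC content (horizontal axis, %) for the 37 subunits (coloured points) in 3 panels, Nrf2-Pink1 siRNA, Pink1 siRNA and Nrf2 siRNA from left to right; the black line is the median and the grey band the 25th to 75th percentile of all genes in 10 bins of GC content. Subunits of low GC content such as NDUFA5 and NDUFB6 lie lowest together with NDUFC1, which has a GC content of 49.4%, and the line for all genes slopes the same way.

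Upstream sequences of the subunits were read for motifs known from genes of oxidative phosphorylation. The window was 250 bases before to 50 after the first start that RefSeq lists for each gene (GRCh38.p14), with 32 of 37 subunits matched; NDUFB5, NDUFB9, NDUFC2 and NDUFS5 were among the 5 that were not. The motifs, searched on both strands, were TGCGCA (the core of the site of nuclear respiratory factor NRF1, which is a different protein from NRF2), CCGGAAG (ETS factors such as GABPA), AAGATGG (YY1), GGGCGG (SP1) and TGACNNNGC (the antioxidant response element, to which NRF2 binds). Upstream stretches of 150 bases are shown for NDUFC1, the subunit farthest below scramble with the double siRNA, and for NDUFB6, of low GC content. They are also shown for 3 subunits that hold the NRF1 core, and motif matches are in capitals throughout.
NDUFC1, chr4:139302552-139302701, minus strand: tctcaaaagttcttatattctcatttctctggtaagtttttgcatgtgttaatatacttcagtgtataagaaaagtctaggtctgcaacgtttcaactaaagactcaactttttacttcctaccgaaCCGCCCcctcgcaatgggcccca
NDUFB6, chr9:32573160-32573309, minus strand: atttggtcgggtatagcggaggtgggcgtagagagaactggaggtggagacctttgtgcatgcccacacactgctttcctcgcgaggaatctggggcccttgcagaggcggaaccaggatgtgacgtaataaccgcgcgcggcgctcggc
NDUFS6, chr5:1801257-1801406, plus strand: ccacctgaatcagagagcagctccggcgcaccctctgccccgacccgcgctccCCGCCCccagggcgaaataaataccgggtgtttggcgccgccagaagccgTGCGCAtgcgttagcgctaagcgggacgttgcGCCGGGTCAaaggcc
NDUFA12, chr12:95003698-95003847, minus strand: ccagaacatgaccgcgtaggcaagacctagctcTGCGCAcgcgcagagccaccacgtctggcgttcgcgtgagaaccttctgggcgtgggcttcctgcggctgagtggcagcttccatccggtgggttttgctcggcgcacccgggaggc
NDUFA9, chr12:4648964-4649113, plus strand: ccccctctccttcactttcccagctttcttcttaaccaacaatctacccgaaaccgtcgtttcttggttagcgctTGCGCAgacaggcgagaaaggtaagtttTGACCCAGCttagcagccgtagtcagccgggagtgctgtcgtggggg

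NDUFC1 held an SP1 box 23 to 18 bases before the start, read here on the other strand, and neither an NRF1 core nor an antioxidant response element; RefSeq lists 4 starts for it and only the first is shown. NDUFB6 held no match. NDUFS6 held an SP1 box, an NRF1 core 47 to 42 bases before the start and an antioxidant response element 15 to 7 bases before it. NDUFA9 held an NRF1 core and an antioxidant response element, and NDUFA12 an NRF1 core.

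Over the 32 matched subunits the NRF1 core was found in 10 (31.2%), against 14.3% of the promoters of 9943 tested genes and 8.4% of all 27305. The YY1 core was found in 7 (21.9%; 7.7% of tested genes), the antioxidant response element in 7 (21.9%; 15.2%), the SP1 box in 20 (62.5%; 71.2%) and the ETS core in 5 (15.6%; 20.2%). The 5 subunits NDUFA3, NDUFA6, NDUFA9, NDUFA12 and NDUFS7 held both the NRF1 and the YY1 core (15.6%; 1.4% of tested genes), with a YY1 core between bases 11 and 32 of the transcript in each. A match to letters is not evidence of binding. The 10 subunits with the NRF1 core had median differences of -0.25, -0.24 and -0.18 with the double, Pink1 and Nrf2 siRNAs, and the 22 without it -0.15, -0.12 and -0.14. Their ranges overlapped (double siRNA -0.66 to 0.18 with the core, -0.96 to 0.40 without it), and this difference was not tested.

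The other nuclear subunits of oxidative phosphorylation and the assembly factors are given for comparison. With the double siRNA, Pink1 siRNA and Nrf2 siRNA, median differences were -0.13, -0.03 and -0.25 for 18 complex I assembly factors, -0.17, -0.22 and -0.26 for 4 subunits of complex II, -0.19, -0.09 and -0.17 for 9 of complex III, -0.21, -0.22 and -0.21 for 11 of complex IV and -0.19, -0.18 and -0.26 for 18 genes of complex V. The complex V genes include ATP5IF1, its inhibitory factor, which is not a subunit. None of these 60 genes was called in these comparisons. Those with an unadjusted p under 0.05 numbered 6, 5 and 4, where 14.2%, 12.2% and 12.2% of all genes had one. Of the 5 with Pink1 siRNA, 1 was higher than scramble, an assembly factor. The medians of the complex I subunits lay within the range of these 5 lists, and the difference between lists was not tested.

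Among 12 regulators of mitochondrial gene expression, 11 were tested and 1 was called, PPARGC1A with Pink1 siRNA. In that comparison 7 of the 11 lay below 0 and 4 above (median -0.11, range -0.83 to 1.28), against 46.7% of all genes below 0. TFAM, named outside the rule, averaged 11.75 ± 1.11 TPM with Pink1 siRNA and 21.67 ± 1.91 with scramble, and was not called. PPARGC1A, the coactivator of mitochondrial biogenesis, had 4.21, 4.39 and 7.83 TPM with Pink1 siRNA, against 1.19, 2.08 and 1.60 TPM with scramble (log2 difference 1.28, SE 0.235, adjusted p = 0.0318). It had 2.31, 2.74 and 2.13 TPM with the double siRNA and 3.995, 3.68 and 3.47 TPM with Nrf2 siRNA, above all scramble samples in both groups (adjusted p = 0.492 and 0.151). The call with Pink1 siRNA held under 7 of 18 alternative settings, and in 0 of the 6 among them that left out a sample, with adjusted p from 0.00685 to 0.139 and log2 differences from 0.65 to 1.67. NRF1 itself averaged 4.36 ± 1.61 TPM with the double siRNA, 3.88 ± 0.502 with Pink1 siRNA, 3.37 ± 0.231 with Nrf2 siRNA and 4.24 ± 0.481 with scramble, and was not called; it is named for its motif, outside the rule.

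NDUFC2 overlaps a read-through gene with KCTD14, and NDUFB4, NDUFA5, NDUFS5 and NDUFAB1 have processed pseudogenes. How the authors' counting divided reads among such copies is not shown by the files, so the levels of these subunits are uncertain to that extent.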

How the data were processed

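Gene-level TPM of 24 poly(A) RNA libraries were used as deposited by the authors, with 24 columns used and 0 per-sample columns left unused. Per the submitters' processing notes, STAR, RSEM and edgeR were used with GRCh37 or hg19; which tool made the TPM is not given in the sources used here. Column sums were 999678 to 999945, so depth is unknown, and no counting intervals are given. Identifiers were matched to symbols through a name table (19325 of 22789 identifiers had a symbol), and all 37 subunits were found.

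Technical pairs were averaged. Values were taken as log2(TPM + 1), and genes averaging under 1 TPM were dropped, which left 13810. The main test came from limma (version 3.58.1, R 4.3.3) with a trended prior, fitted once to the 4 groups (residual degrees of freedom 8, prior 4.93). It was two-sided, p-values were Benjamini-Hochberg adjusted over all genes tested, and 0.05 was the threshold. Fold changes on log2(TPM + 1) understate those of low genes. The fitting script was tested on simulated data.

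Subunits and lists were chosen with earlier results of these data known. Values per sample were given for the 3 subunits with the smallest adjusted p against scramble in each comparison, for the 2 highest and 2 lowest by mean TPM, and, at least as group means, for the core subunits; 1 core subunit enters the counts, medians and sums but is not reported here by itself; others named are said to be outside this rule. Of other lists, called genes were named. Alternatives were a pseudocount of 0.1 or 5 TPM, no filter or a minimum of 5 TPM, median-of-ratios and quantile scaling, removal of ENSG00000226958, the compared groups alone, sample weights, a replicate block, 1 technical replicate in place of the mean, and each sample left out; removal of trends over GC content and length was added after seeing the data. Figures were drawn with matplotlib 3.10.9.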

Additional observations from a re-analysis of the deposited data

How the results depend on the processing

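Under 19 alternatives for each comparison between groups, the count of called subunits was 0 except in 6 cases among the comparisons with scramble. With the double siRNA it was 1 under median-of-ratios scaling, quantile normalization, removal of ENSG00000226958 and removal of GC and length trends (NDUFC1 each time), and 3 with sample weights (NDUFC1, NDUFV3 and NDUFA7). With Pink1 siRNA it was 3 with sample weights (NDUFC1, NDUFB6 and NDUFA12). The F test over the 4 groups called 1 under removal of ENSG00000226958, with sample weights and under removal of GC and length trends. The cause was not tested. The share of all genes called under the same alternative is not set beside these counts. Genes called reached 943 with the double siRNA and 666 with Pink1 siRNA over alternatives that kept all samples. The counts are therefore not read as a result about the subunits. Fits that left out a sample called 0 subunits. The subunits' median with the double siRNA ran from -0.40 to -0.024 over the fits that left out a sample, and from -0.27 to -0.12 over the other 13 alternatives. Between the double siRNA and Nrf2 siRNA, where nothing was called, the median ran from -0.26 to 0.17 over the fits that left out a sample.

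Counts of all genes called moved more: from 6 to 943 with the double siRNA (104 in the main result), 34 to 666 with Pink1 siRNA (65) and 8 to 598 with Nrf2 siRNA (46) over alternatives that kept all samples. Same-numbered samples did not deviate together (r from -0.0846 to 0.113), and the main fit used no replicate block. A low r cannot show that the samples were unpaired, since each sample also varied by itself, as in its share of ENSG00000226958. With a replicate block 0 subunits were called in each comparison, the subunits' median with the double siRNA was -0.16, and genes called numbered 106 with the double siRNA, 40 with Pink1 siRNA and 30 with Nrf2 siRNA. TPM keep no depth, so the counting error behind each level is unknown.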
